A study of Mus musculus with 18 samples.

Results

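H3K27me3 was followed over 10 Sox genes of the neural and vascular lineages: Sox1, Sox2, Sox4, Sox5, Sox7, Sox8, Sox11, Sox14, Sox18 and Sox21. The genes were taken by name, and the mark was read from every deposited interval that overlapped the gene body or the 2500 bp on either side of it. All 10 were found among 21631 protein-coding genes of the autosomes and chromosome X. An interval was present in all 12 libraries at 5 of them, in some libraries at 3 and in no library at 2.

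Sox proteins bind DNA through an HMG box and fall into groups by sequence. Sox1 and Sox2 hold neural progenitors in a dividing state, Sox14 and Sox21 belong to a related group that counters them, Sox4 and Sox11 act in newborn neurons, and Sox5 acts during neuronal differentiation. Sox8 is a relative of the glial and neural crest factors Sox9 and Sox10, and Sox7 and Sox18 act with Sox17 in the endothelium. Trimethylation of lysine 27 on histone H3 is placed by the Polycomb complex PRC2, whose catalytic subunit is EZH2 or EZH1, and lies over developmental genes that a cell keeps silent, often around CpG-rich start sites.

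The mark was mapped by bulk CUT&Tag, in which an antibody tethers a transposase that tags nearby DNA, in the medial ganglionic eminence (MGE), a ventral part of the embryonic forebrain that gives rise to cortical and striatal interneurons. Mouse embryos were taken at E12.5 and E15.5, and each of the 4 stage and genotype groups has 3 libraries that the labels call biological replicates. The KO is labelled Nkx2.1-CreC/+;Ezh2;Ai9F/+, with Ezh2 deleted by a Cre driven from Nkx2.1 and an Ai9 reporter that makes recombined cells red. Both genotypes came from males homozygous for the Cre and females homozygous for Ai9, each with 1 floxed Ezh2 allele, so the WT embryos of that cross carry Cre and Ai9 too. The deletion is limited to cells with a history of the Cre, and embryos of 1 genotype were pooled where applicable. The whole MGE was taken at E12.5, while at E15.5 it was dissected under fluorescence to keep Tom+ tissue, so stage and dissection cannot be told apart. Of 18 samples, the 6 Het ones were not analysed here.

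The libraries differed in depth, given here as the mean count per 200 bp window, from 0.0751 to 0.698. At E12.5 its mean was 0.432 in WT and 0.243 in KO, at E15.5 it was 0.118 in WT and 0.247 in KO, and each list held between 5008 and 13289 intervals with 573838 to 6846250 counts. A normalised count below is the count of all intervals at a gene, divided by the depth of its library and multiplied by the mean depth over all 12. A library without an interval at a gene has no count there. In bulk tissue, fewer cells with the mark and less mark per cell cannot be told apart. Ezh2 had no interval in any library, so the lists carry no check of the deletion. The lists hold no transcript levels, so the tissue could be looked at only through the mark: Nkx2-1, the factor that defines the MGE, carried an interval in all 12 libraries. Of 4 markers of cortical excitatory neurons, 3 to 4 carried an interval in each library, against 1 to 3 of 4 oligodendrocyte markers, 2 to 3 of 6 endothelial markers, none of 4 microglial markers and 0 to 1 of 10 housekeeping genes.

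The 250 bases before the gene start are shown for 6 of the genes, 4 that carried intervals there and 2 that did not, because they show the start sites with and without the mark. They are RefSeq promoters of build GRCm38.p6, written 5′ to 3′ along the gene, with each CG dinucleotide in capitals. Sox14 (chr9:99876171-99876420, minus strand), Sox21 (chr14:118237031-118237280, minus strand) and Sox1 (chr8:12395269-12395518, plus strand) had an interval over these bases in all 12 libraries, and Sox2 (chr3:34649745-34649994, plus strand) had one in 11. Sox4 (chr13:28953700-28953949, minus strand) and Sox11 (chr12:27342719-27342968, minus strand) had none in any library.
Sox14: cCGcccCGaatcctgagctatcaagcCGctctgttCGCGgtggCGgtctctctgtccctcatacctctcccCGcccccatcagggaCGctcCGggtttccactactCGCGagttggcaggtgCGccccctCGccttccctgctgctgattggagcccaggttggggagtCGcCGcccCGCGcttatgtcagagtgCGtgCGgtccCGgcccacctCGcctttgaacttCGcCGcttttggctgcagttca
Sox21: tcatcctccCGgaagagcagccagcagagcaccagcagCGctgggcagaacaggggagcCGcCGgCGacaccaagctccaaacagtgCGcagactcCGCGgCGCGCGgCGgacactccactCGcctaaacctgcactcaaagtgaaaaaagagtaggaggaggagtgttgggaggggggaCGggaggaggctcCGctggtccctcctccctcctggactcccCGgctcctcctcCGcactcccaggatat
Sox1: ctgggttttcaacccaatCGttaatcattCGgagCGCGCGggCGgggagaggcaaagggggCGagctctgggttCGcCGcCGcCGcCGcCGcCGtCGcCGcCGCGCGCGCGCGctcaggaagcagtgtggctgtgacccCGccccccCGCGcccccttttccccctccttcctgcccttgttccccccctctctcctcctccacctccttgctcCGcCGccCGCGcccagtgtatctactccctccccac
Sox2: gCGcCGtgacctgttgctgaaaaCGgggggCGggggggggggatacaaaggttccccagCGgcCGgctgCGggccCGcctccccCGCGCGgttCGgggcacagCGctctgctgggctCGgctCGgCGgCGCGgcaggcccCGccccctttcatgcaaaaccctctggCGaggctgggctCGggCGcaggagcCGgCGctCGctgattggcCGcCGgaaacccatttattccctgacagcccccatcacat
Sox4: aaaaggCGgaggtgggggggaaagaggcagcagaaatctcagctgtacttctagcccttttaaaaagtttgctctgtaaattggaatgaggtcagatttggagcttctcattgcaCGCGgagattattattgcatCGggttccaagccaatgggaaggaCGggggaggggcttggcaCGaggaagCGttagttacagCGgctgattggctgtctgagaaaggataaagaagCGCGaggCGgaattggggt
Sox11: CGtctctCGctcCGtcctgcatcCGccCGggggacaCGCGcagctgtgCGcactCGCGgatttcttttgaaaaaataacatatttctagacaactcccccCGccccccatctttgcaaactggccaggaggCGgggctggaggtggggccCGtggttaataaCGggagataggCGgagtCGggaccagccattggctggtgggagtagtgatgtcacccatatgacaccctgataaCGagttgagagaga

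These stretches held 23 CG dinucleotides at Sox14, 17 at Sox21, 29 at Sox1 and 27 at Sox2, against 11 at Sox4 and 17 at Sox11. CG reads the same on both strands, and 93.7% of the 20085 mouse promoters in the table hold at least 1, with a median of 10. The 1442 promoters with an interval in all 12 libraries had a median of 16, and the 14345 with none had a median of 6. Sox11 thus had as many CG dinucleotides as Sox21 yet carried no interval, while GC content was 58% at Sox11, 50.8% at Sox4 and between 65.2% and 72% at the 4 genes with intervals. The ratio of CG dinucleotides to the number expected from the C and G content did not separate them. It was 0.81 at Sox11 and 0.80 at Sox4, against 0.64 at Sox21, 0.83 at Sox2, 0.88 at Sox14 and 0.99 at Sox1. Promoters of 8 of the 10 genes were in the table. The Sox8 promoter had 18 CG dinucleotides and an interval in 10 libraries. The promoter listed for Sox5 begins inside the gene body and had 3 CG dinucleotides and no interval.

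The genes differed first in whether they carried an interval at all. Sox1, Sox7, Sox14, Sox18 and Sox21 carried an interval in all 12 libraries. Sox2 lacked one only in E15.5 WT replicate 1, and Sox8 only in E15.5 WT replicate 2. Sox5 had an interval in 7 libraries, and Sox4 and Sox11 in none. Across 20665 autosomal genes, 12.1% carried an interval in every library and 61.2% in none. Among the other Sox genes, Sox3, Sox6, Sox10 and Sox17 had an interval in all 12 libraries, Sox9 in 9, Sox12 in 5, Sox13 in 2, and Sox15 and Sox30 in none. No interval at any of the 10 genes reached the window of another protein-coding gene.

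Compared per kilobase of interval, Sox14 carried the densest mark. Its median over the 12 libraries was 223 normalised counts per kb, and each library placed it between percentiles 95.8 and 99.1 of autosomal genes with an interval. Sox7 followed at 112 per kb and Sox18 at 88.3, with Sox17, the third gene of the vascular group, between Sox14 and Sox7 at 176. Sox21 stood at 30.0, Sox1 at 18.0, Sox8 at 15.7, Sox2 at 14.3 and Sox5 at 13.2. The single-library ranges of neighbours overlapped in this order: Sox14 ran from 145 to 348 per kb, Sox7 from 63.3 to 148, Sox18 from 45.8 to 99.3 and Sox21 from 22.5 to 44.8. Sox18 and Sox21 were the exception, since the lowest Sox18 library lay above the highest Sox21 library. Sox1 (8.10 to 23.4), Sox8 (6.80 to 38.0) and Sox2 (9.81 to 21.7) were not separated by their spread.

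**Figure D1:**
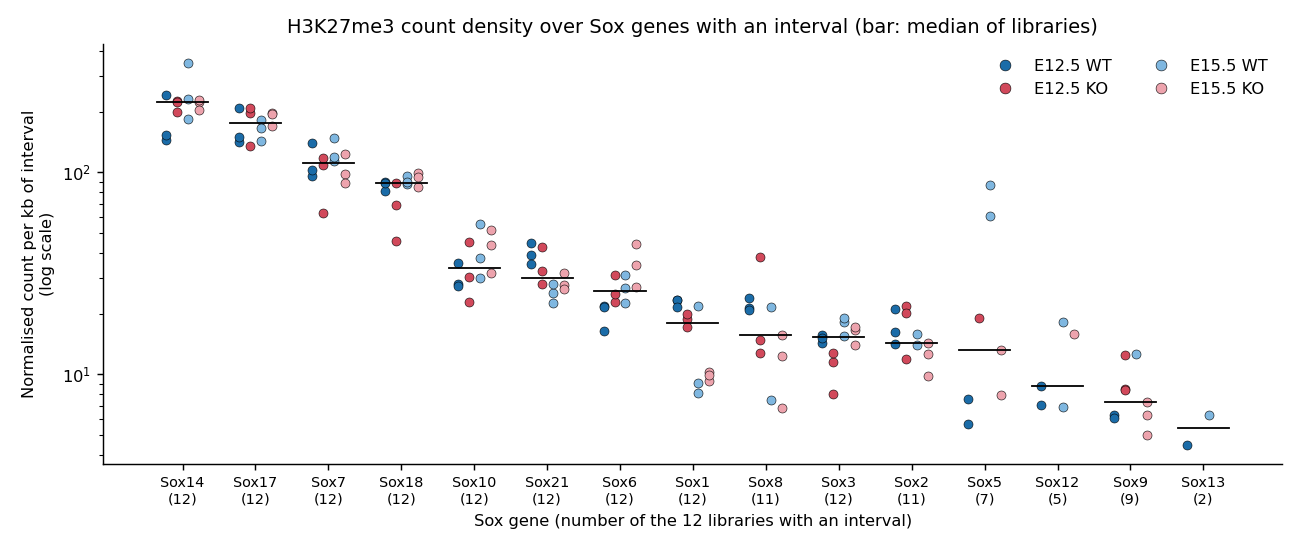
Normalised H3K27me3 count per kb of interval (vertical, log scale) for each Sox gene with an interval, ordered by median; points are libraries coloured by stage and genotype, bars are medians over the libraries with an interval, and the number of those libraries stands under each name. Sox14, Sox17, Sox7 and Sox18 lie above the other genes at medians of 223, 176, 112 and 88.3.

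Sox14 specifies a class of GABAergic neurons in the thalamus and midbrain. Its normalised counts were 5127, 4500 and 4391 in WT and 3427, 4672 and 4344 in KO at E12.5, then 5289, 5153 and 5155 in WT and 4677, 5555 and 4802 in KO at E15.5. KO and WT libraries overlapped at both stages. A stretch of 15.2 kb (chr9:99864601-99879800), which takes in the whole gene of 2.065 kb (chr9:99874106-99876170), was covered in all 12 libraries. Whole intervals ran from 15200 bp in E15.5 WT replicate 1 to 31000 bp in E12.5 WT replicate 2.

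Sox7 and Sox18 help to form blood and lymphatic vessels. Sox7 (chr14:63943706-63950732) had 1560, 1866 and 1577 normalised counts in WT and 861, 1181 and 1512 in KO at E12.5, then 1335, 1212 and 1305 in WT and 1145, 1372 and 1339 in KO at E15.5. Sox18 (chr2:181669837-181671640) had 682, 804 and 706, then 358, 482 and 654 at E12.5, and 730, 703 and 664, then 573, 715 and 626 at E15.5, WT before KO. At E12.5 both genes were lower in every KO library than in any WT library, as were 33% of 3140 genes, and at E15.5 the genotypes overlapped. KO replicate 1, the lowest E12.5 library for both, also had the lowest Sox14 count. Stretches of 9.0 kb at Sox7 (chr14:63939601-63948600) and 6.4 kb at Sox18 (chr2:181668201-181674600) were covered in all 12 libraries.

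Sox21, which promotes the exit of progenitors towards neurons, had 798, 739 and 634 normalised counts in E12.5 WT and 535, 567 and 745 in E12.5 KO. At E15.5 it had 297, 147 and 501 in WT and 492, 484 and 457 in KO. The E15.5 WT libraries spread most and E15.5 KO least, and every E15.5 library lay below every E12.5 library, as in 6.9% of 2492 genes. The gene (chr14:118233233-118237030) sat in intervals of 18.3 ± 0.643 kb (SD, n = 3) in WT and 18.0 ± 1.04 kb in KO at E12.5, and of 12.3 ± 6.05 kb in WT and 16.7 ± 1.36 kb in KO at E15.5. In 5 libraries the interval was broken near the end of the gene, between the same pair of stretches that all 12 libraries covered, 3.6 kb over the start (chr14:118234001-118237600) and 2.2 kb beyond the end (chr14:118230601-118232800).

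Sox1, one of the earliest markers of the neural lineage, had 561, 593 and 476 normalised counts in E12.5 WT and 434, 384 and 163 in E12.5 KO. At E15.5 it had 72.6, 50.2 and 527 in WT and 119, 223 and 133 in KO. E15.5 WT replicate 3 stood far above the other 2 libraries of its group, at the level of E12.5 WT. Both extent and density differed: intervals over Sox1 (chr8:12395519-12399555) covered 24200 bp at 21.8 normalised counts per kb in that library, against 8000 bp at 9.08 and 6200 bp at 8.10 in the other 2. All 12 libraries shared 2.6 kb over the start (chr8:12395001-12397600) and 1.2 kb beyond the end (chr8:12400801-12402000).

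Sox2, which keeps neural stem cells in self-renewal, showed the same kind of variation. Its normalised counts were 117, 407 and 324 in E12.5 WT, 262, 78.2 and 97.2 in E12.5 KO, and 90.2, 55.4 and 42.9 in E15.5 KO, while E15.5 WT had no interval in replicate 1, then 36.2 and 319. The 4 high libraries were those whose intervals reached far past the end of the gene (chr3:34649995-34652461), over 25200 bp in E12.5 WT replicate 2, 23000 bp in E12.5 WT replicate 3, 22000 bp in E12.5 KO replicate 1 and 20200 bp in E15.5 WT replicate 3. In the other 7 libraries with an interval they covered 2600 to 9200 bp. The 11 libraries shared 2.6 kb over the start (chr3:34648801-34651400).

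**Figure D2:**
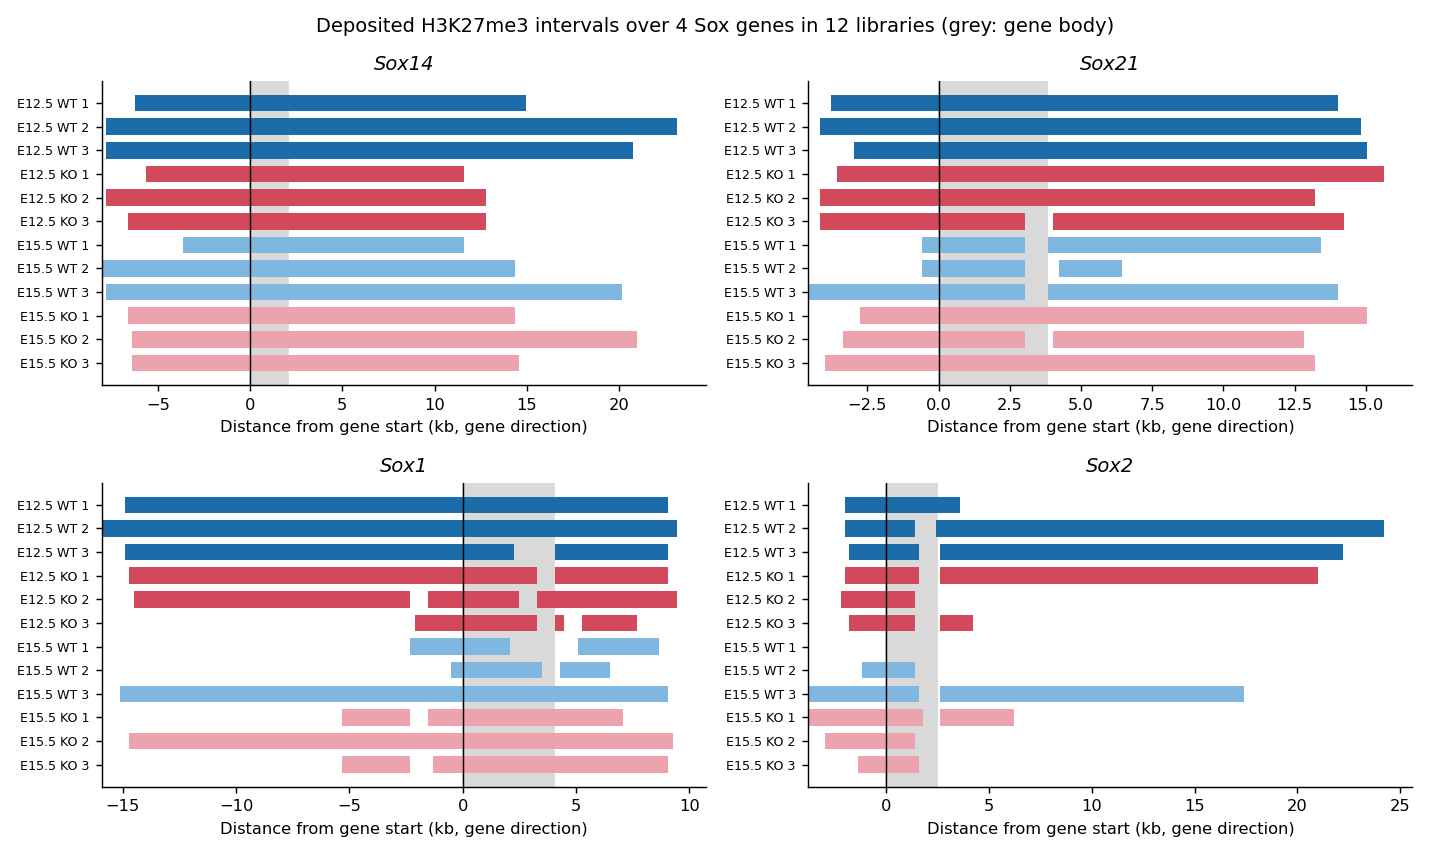
Deposited intervals (bars) over Sox14, Sox21, Sox1 and Sox2 in each of the 12 libraries (rows, coloured by stage and genotype), by distance from the gene start in kb along the gene, with the gene body in grey. The start is covered in every library at Sox14, Sox21 and Sox1 and in 11 libraries at Sox2, and the outer reach of the intervals differs between libraries of 1 group.

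Sox8, a glial and neural crest factor, had 124, 209 and 125 normalised counts in E12.5 WT and 89.4, 88.7 and 144 in E12.5 KO. At E15.5 it had 17.3, no interval and 45.1 in WT, and 40.7, 49.4 and 28.6 in KO. Every E15.5 library was below every E12.5 library, with a missing interval taken as 0, as in 6.68% of the 4102 genes with an interval in most of the libraries. The E15.5 WT replicate 1 interval of 800 bp lay wholly beyond the end of the gene (chr17:25565893-25570686), whereas the other 10 libraries covered its start.

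Sox5 spans 954 kb (chr6:143828425-144782287) and carried little of the mark. Its normalised counts were 16.0 and 36.2 in E12.5 WT replicates 2 and 3, 7.63 in E12.5 KO replicate 2, 17.3 and 12.1 in E15.5 WT replicates 1 and 3, and 17.5 and 21.1 in E15.5 KO replicates 1 and 3. The other 5 libraries had no interval. At most 4 of the 7 libraries shared any 200 bp window, and that shared stretch lay just upstream of the outer start of the gene, while the intervals of the other 3 lay inside the gene body and were short.

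**Figure D3:**
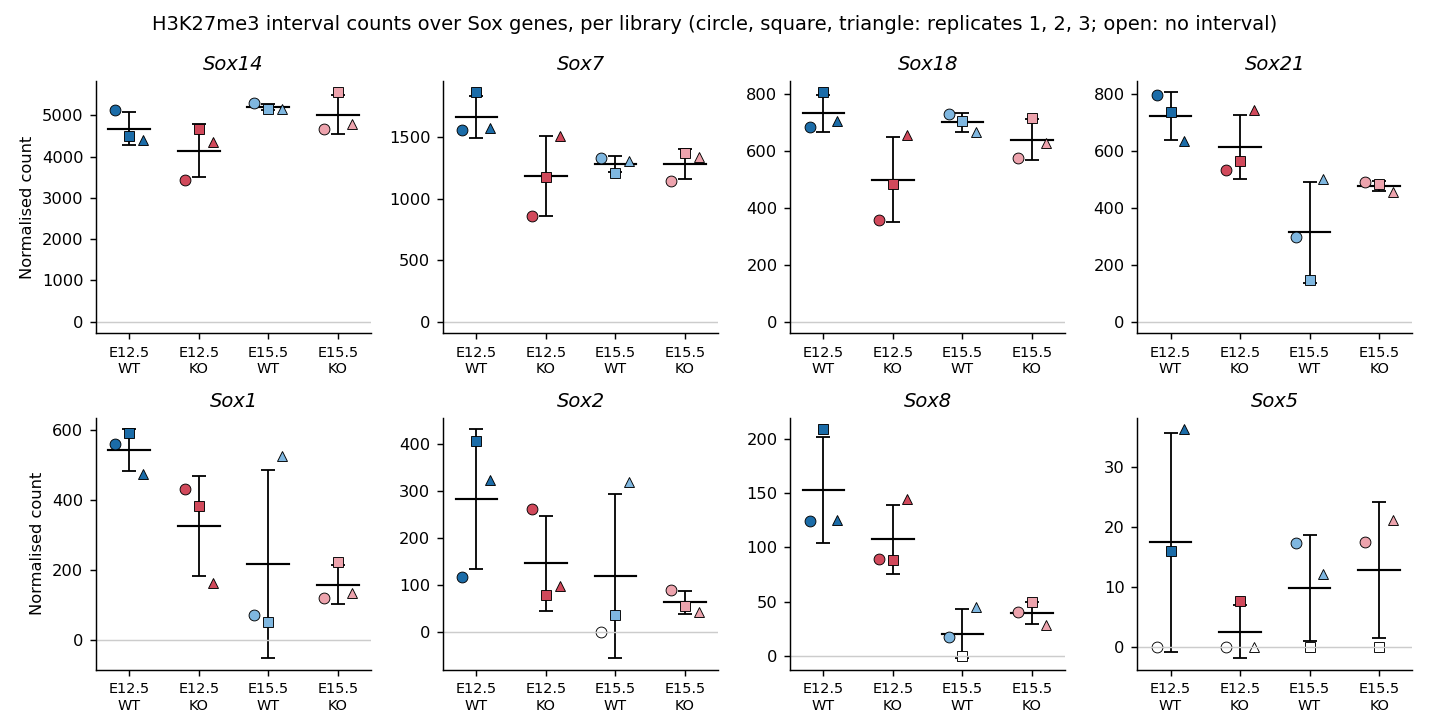
Normalised counts (vertical) per library for the 8 genes with an interval, by stage and genotype; circle, square and triangle are replicates 1, 2 and 3, open symbols have no interval and are drawn at 0, and bars are means ± SD of 3 libraries. Sox1 and Sox2 in E15.5 WT replicate 3, at 527 and 319, lie above the other libraries of that group, and the E15.5 libraries of Sox8 and Sox21 lie below the E12.5 ones.

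The KO was compared with WT at each stage to ask whether loss of Ezh2 lowered the mark over these genes. With all libraries in the fit, none of the genes passed the test of counts at either stage. At E12.5, 7 could be tested, and all 7 estimates were below 0, with a median log2 difference of -0.52 against -0.57 over all 3140 genes tested, of which 91.6% were below 0. edgeR's quasi-likelihood test, with Benjamini-Hochberg adjustment over all genes tested and a threshold of 0.05, called none of the 7 and 4.04% of all genes (127 lower, 0 higher). At an unadjusted p below 0.05 it passed 905 genes.

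The E12.5 estimates were -0.97 (SE 0.49, edgeR adjusted p = 0.189) for Sox2 and -0.73 (SE 0.37, edgeR adjusted p = 0.188) for Sox1. Both varied with the intervals counted. Sox1 gave -0.31 within 5 kb and in merged regions, and -1.16 with an overlap of at least 200 bp. Sox2 gave -0.33 in merged regions, -0.51 with counts inside the window and -1.14 within 5 kb. Neither gene passed in these fits. The vascular pair gave -0.55 for Sox18 (SE 0.32, edgeR adjusted p = 0.223) and -0.49 for Sox7 (SE 0.30, edgeR adjusted p = 0.239). Sox8 gave -0.52, Sox21 -0.23 and Sox14 -0.17, with edgeR adjusted p of 0.326, 0.552 and 0.589. Sox2 passed with E12.5 WT replicate 1 left out (log2 -1.33, edgeR adjusted p = 0.0194). That fit called 475 genes lower and 3 higher of 3373. The other 6 genes passed in none of the fits that left out 1 library. In Sox1, Sox7 and Sox18, 3 of the 7, every KO library lay below every WT library, a pattern shown by 33% of the 3140 genes.

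The E12.5 shift of all genes depended on the scaling. With TMM factors, which centre the genes on each other, the median of all genes was -0.05, the calls split into 38 lower and 9 higher, the median of the 7 genes was 0.02, and the estimates of Sox7, Sox8, Sox14 and Sox21 turned positive. With DESeq2 and its size factors (98 lower, 73 higher) those 4 and Sox18 turned positive. None of the 7 was called with TMM factors or with DESeq2. Mean depth was higher in E12.5 WT than in E12.5 KO, though WT replicate 1 (0.117) was below all 3 KO libraries, and every E15.5 WT library was shallower than every E15.5 KO library. Coverage outside the autosomes differed too. The E12.5 KO lists covered 42.66, 42.487 and 40.3322 Mb in all, with 32666400, 32053400 and 33013600 bp on autosomes. The E12.5 WT lists covered 28.6032, 70.8354 and 65.3294 Mb, with 28264800, 70175200 and 51657800 bp on autosomes. The part of depth and of coverage outside the autosomes in the differences was not tested.

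At E15.5, 5 genes could be tested, with a median log2 difference of -0.05 against -0.01 over all 2695 genes. edgeR called none of the 5 and 0.482% of all genes (2 lower, 11 higher), with 303 genes at an unadjusted p below 0.05. Sox14 (log2 -0.05, SE 0.10, edgeR adjusted p = 0.888), Sox7 (0.00, SE 0.11, edgeR adjusted p = 0.997) and Sox18 (-0.13, SE 0.12, edgeR adjusted p = 0.699) had the smallest errors. Sox21 gave 0.59 (SE 0.38, edgeR adjusted p = 0.581), with 2 of the 3 WT libraries below all KO libraries. Sox1 gave -0.49 (SE 0.80, edgeR adjusted p = 0.869), a value set by E15.5 WT replicate 3: without it the estimate was 1.40 (edgeR adjusted p = 0.238). In none of the 5 did the KO libraries all lie above or all below the WT libraries. In 11.1% of genes the KO libraries all lay above.

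Over both stages, with stage in the model, none of the 5 genes present throughout was called, against 0.963% of 2492 genes (23 lower, 1 higher; 527 at an unadjusted p below 0.05). The estimates were -0.61 for Sox1 (SE 0.45), -0.34 for Sox18 (SE 0.17), -0.25 for Sox7 (SE 0.16), -0.11 for Sox14 (SE 0.11) and 0.18 for Sox21 (SE 0.25), with a median of -0.25 against -0.29 over all genes. The lowest edgeR adjusted p was 0.238, for Sox18. Without E15.5 WT replicate 3 the Sox1 estimate was 0.07. With TMM factors the split of all calls was 49 lower and 53 higher, and Sox7 and Sox14 turned positive, as they did with DESeq2.

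The difference in the KO effect between the stages (E15.5 minus E12.5) was called for 0.562% of genes, 0 lower and 14 higher, and for none of the 5, with 686 genes at an unadjusted p below 0.05. Its median was 0.42 over the 5 genes and 0.61 over all genes, or -0.14 and 0.02 with TMM factors, which called 0 lower and 6 higher. With TMM factors and with DESeq2 the estimates of Sox1, Sox7, Sox14 and Sox18 turned negative. Sox21 gave 0.83 (edgeR adjusted p = 0.228), Sox7 0.50, Sox18 0.42, Sox1 0.25 and Sox14 0.12. Without E12.5 KO replicate 3, Sox7 (0.71, edgeR adjusted p = 0.0422) and Sox18 (0.67, edgeR adjusted p = 0.0432) passed, 2 of the 5. That fit called 958 of all 2492 genes.

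**Figure D4:**
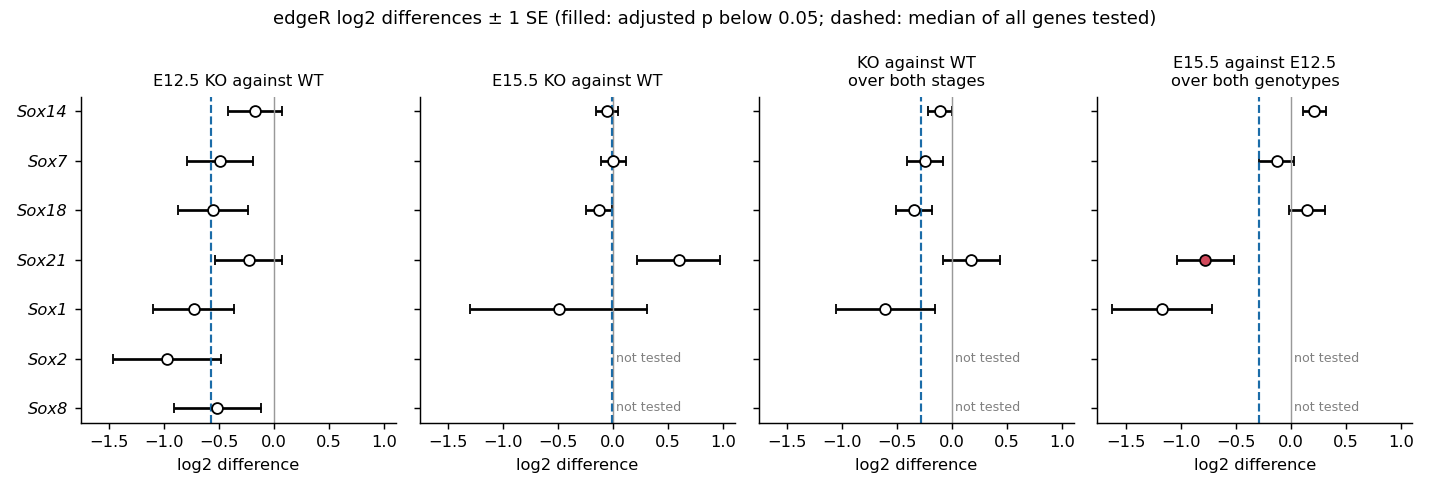
log2 differences (horizontal, points) with 1 SE for the Sox genes tested in 4 comparisons; filled points have an edgeR adjusted p below 0.05, and the dashed line is the median of all genes tested. The 3 genotype panels have no filled point, and Sox21 at -0.78 is the filled point in the stage panel.

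Sox18 showed a difference in the length of its interval in the same direction at both stages. Intervals over Sox18 measured 8400, 9000 and 8000 bp in WT and 7800, 7000 and 7400 bp in KO at E12.5. They measured 7600, 8000 and 7400 bp in WT and 6800, 7200 and 6600 bp in KO at E15.5. At both stages every KO library was shorter than every WT library. How many of all genes showed such a separation of interval lengths was not counted. Counted within 5 kb of the gene, which held the whole intervals, the log2 difference in covered bases was -0.18 with an exact two-sided permutation p of 0.005 over 400 assignments within stages, the smallest that this design can give. The same test called 1.64% of 2677 genes shorter in KO, and that p is not adjusted over them. Within the 2.5 kb that the main measure uses, which cuts the ends off, the difference was -0.07 with an exact permutation p of 0.085. As a share of all covered autosomal bases it was 0.03 with an exact permutation p of 0.925.

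None of the other 4 genes passed the test of covered bases within 2.5 kb. The log2 differences were 0.16 for Sox21, 0.07 for Sox1, -0.01 for Sox7 and 0 for Sox14, whose window was covered throughout in all 12 libraries. The exact permutation p was 0.3 for Sox21, 0.57 for Sox1, 0.935 for Sox7 and 1 for Sox14. With Sox18 counted, 0 of 5 were at or below 0.05, against 2.05% of 2492 genes. Sox7 intervals measured 15.3 ± 4.10 kb (SD, n = 3) in WT and 12.4 ± 1.44 kb in KO at E12.5, then 10.2 ± 1.06 kb in WT and 12.6 ± 2.46 kb in KO at E15.5, with overlap of the genotypes at both stages. Whole Sox14 intervals reached past its window and measured 26.9 ± 5.11 kb in WT and 19.1 ± 1.72 kb in KO at E12.5. There every KO library was shorter than every WT library. At E15.5 they measured 21.9 ± 6.42 kb in WT and 23.1 ± 3.70 kb in KO, with overlap.

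**Figure D5:**
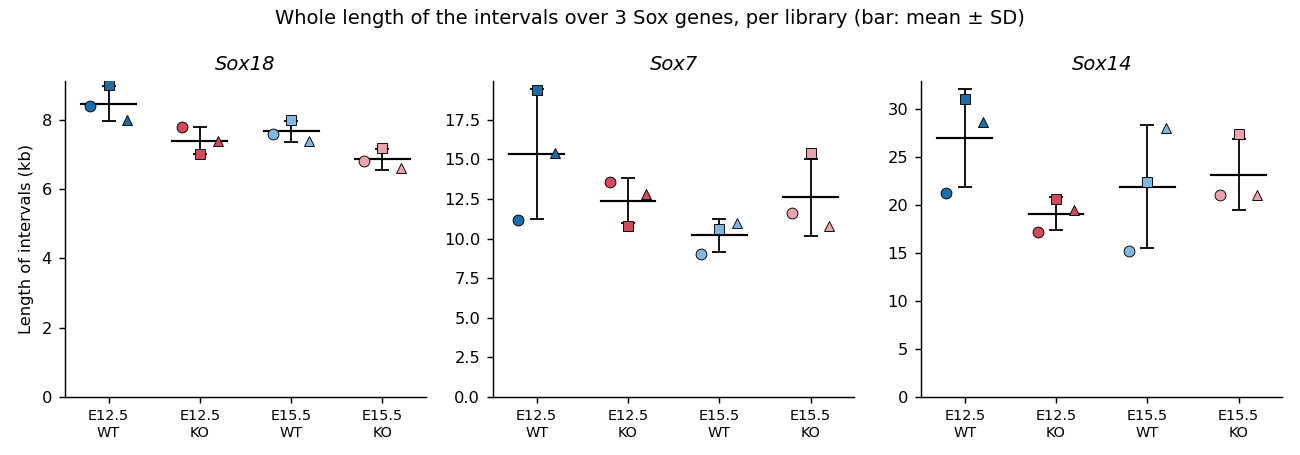
Whole length of the intervals (vertical, kb, from 0) over Sox18, Sox7 and Sox14 per library, by stage and genotype; symbols are replicates 1 to 3 and bars are means ± SD. The Sox18 KO libraries are shorter than the WT libraries at each stage, at most 7800 bp against at least 8000 bp at E12.5 and at most 7200 bp against at least 7400 bp at E15.5. Sox14 is also shorter in every KO library at E12.5, at most 20600 bp against at least 21200 bp, and overlaps at E15.5. Sox7 overlaps at both stages.

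Between the stages 1 of the 5 genes tested, Sox21, was called lower at E15.5. Sox8 was called only in fits with another filter or without 1 library, given after it. Sox21 fell by 0.78 on the log2 scale (SE 0.26, edgeR adjusted p = 0.0386) over both genotypes, from 670 ± 107 normalised counts (SD, n = 6) to 396 ± 144. In this comparison 21.8% of 2492 genes were lower and 3.69% higher at E15.5 (1032 at an unadjusted p below 0.05), with a median of -0.29 over all genes and -0.13 over the 5 Sox genes, of which 1 was lower and 0 higher. The Sox21 call was narrow. It was lost without E12.5 WT replicate 1, 2 or 3, E12.5 KO replicate 3, E15.5 WT replicate 1 or 2, or E15.5 KO replicate 3, with edgeR adjusted p of 0.0703, 0.0581, 0.0631, 0.0844, 0.0983, 0.0568 and 0.0592, and with TMM factors (log2 -0.53, edgeR adjusted p = 0.0646). Its direction was kept in all of these, at log2 differences of -0.53 to -0.80.

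Sox8 was outside the main test because E15.5 WT replicate 2 has no interval. Where genes with an interval in most of the libraries (more than 50%) were tested, with 0 for a missing interval, Sox8 fell by 2.11 on the log2 scale (SE 0.58, edgeR adjusted p = 0.0367), and 9.85% of 4102 genes were called in that direction. Sox21 missed the threshold in this wider set (log2 -0.78, edgeR adjusted p = 0.0837). With the library that lacks the interval left out instead, Sox8 fell by 1.76 (SE 0.32, edgeR adjusted p = 0.00287). That fit called 319 of 2540 genes lower. Sox2 under the same wider filter gave -1.23 (SE 0.74, edgeR adjusted p = 0.306), and Sox5 0.67 (SE 1.63, edgeR adjusted p = 0.836). Without E15.5 WT replicate 1, which lacks its interval, Sox2 gave -0.97 (edgeR adjusted p = 0.187). In merged regions Sox2 passed at -0.91 (SE 0.22, edgeR adjusted p = 0.000404), where 771 of 2822 genes were called lower.

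Sox1 gave -1.17 (SE 0.46, edgeR adjusted p = 0.0710) between the stages and did not pass. Without E15.5 WT replicate 3 it passed at -1.87 (edgeR adjusted p = 0.00986), where 374 of 2505 genes were called lower. Within 5 kb of the gene it passed at -1.34 (edgeR adjusted p = 0.0259), where 563 of 2677 genes were called lower. In merged regions it passed at -1.11 (edgeR adjusted p = 4.73e-06), where 771 of 2822 genes were called lower. Sox14 gave 0.21 (edgeR adjusted p = 0.152), Sox18 0.15 (0.526) and Sox7 -0.13 (0.566). Scaling decided the calls of the dense genes: with TMM factors, where 502 genes were lower and 491 higher, Sox14 (0.47, edgeR adjusted p = 0.0217) and Sox18 (0.44, edgeR adjusted p = 0.00177) passed as higher at E15.5, and Sox7 turned positive. DESeq2 gave the same 3 directions and the same pair of calls.

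The genes whose normalised counts most resembled those of Sox21 over the 12 libraries, among 2492, were Sypl2 (Pearson r 0.92), Tnfrsf1a (0.91) and Adgrb2 (0.91). Sox1 followed Sox21 at 0.79, Sox7 at 0.37, Sox18 at -0.10 and Sox14 at -0.35. These values describe libraries that share depth and group with each other and carry no test.

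Of 16 vascular regulators, 12 to 13 carried an interval in each library, 12 could be tested in each comparison, and Tie1, Cdh5 and Pecam1 had none in any library. At E12.5 all 12 estimates were below 0, with a median of -0.30, beside 91.6% below 0 and a median of -0.57 over all genes, while with TMM factors 4 of 12 were, with a median of 0.23. Foxc2, which acts in vessel and lymphatic valve formation, was the 1 of the 12 called, lower in E12.5 KO, where 4.04% of all genes were called (log2 -0.96, edgeR adjusted p = 0.0427), a call lost under TMM scaling (-0.39, edgeR adjusted p = 0.437). None was called at E15.5 or over both stages. Between the stages Prox1, a regulator of lymphatic endothelium and of neural progenitors, was the 1 of the 12 called (log2 0.54, edgeR adjusted p = 0.0370). It was higher at E15.5, as were 3.69% of all genes. Under TMM scaling 2 of the 12 were higher, Prox1 (0.82, edgeR adjusted p = 5.71e-05) and Lmo2 (0.61, edgeR adjusted p = 0.00567). That scaling called 491 of all 2492 genes higher. Of 10 neural progenitor genes, 3 to 8 carried an interval in each library, and of the 6 tested at E12.5 Nes, a progenitor filament gene, was lower in KO (log2 -4.81, edgeR adjusted p = 0.0347), a call lost under TMM scaling (-4.10, edgeR adjusted p = 0.260). The 3 that could be tested in each of the other comparisons were not called. Of the other autosomal Sox genes, Sox6, Sox10 and Sox17 were tested and none passed in any of the 5 comparisons with depth as the scaling. Sox6 passed as higher in KO over both stages with TMM factors and with DESeq2. Those fits called 53 and 104 of all 2492 genes higher. With depth as the scaling Sox6 gave 0.32 there (SE 0.22, edgeR adjusted p = 0.367).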

How the data were processed

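The data are 12 lists of H3K27me3 intervals, 1 per library and not pooled, in GRCm38. The submitters' processing notes name cutadapt, Bowtie2, SAMtools, Picard, deepTools and SICER; versions, settings and thresholds are not given in the sources used here. The authors deposited a whole-number count per interval, not normalized, which was used as it stands. The authors also deposited a score per interval. In intervals of a single 200 bp window below the ceiling of 1000 it matched minus the natural log of a Poisson probability with a single mean in each library (largest misfit 0.00138, in E12.5 KO replicate 2). That mean was used as depth, on the assumption that it scales with the reads sequenced. Depth ran from 0.0751 to 0.698, and low counts carry more counting error in the shallower libraries.

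Genes, positions and promoters come from RefSeq tables of GRCm38. Counts were summed over the intervals that overlap a gene body ± 2500 bp by at least 1 bp, and autosomal genes with an interval in every library compared were tested with edgeR 4.0.16 in R 4.3.3 (quasi-likelihood test, library sizes proportional to depth, Benjamini-Hochberg adjustment). The SE of a log2 difference was taken as its absolute value divided by √F. Covered bases were tested with exact permutations within stages. Both tests were first run on simulated data. The members and gene lists were chosen with earlier results of these data known. All 10 genes are named, with the other Sox genes that lacked an interval in some libraries or passed a test, Ezh2, Nkx2-1, list genes that passed, and the 3 genes most correlated with a called member. Nothing beyond the labels says how far replicates are independent, so p-values measure the spread between these libraries. The alternatives were TMM factors, DESeq2 1.42.0, count and presence filters, other windows and overlaps, merged regions, intervals above their list's median score, a replicate block and leaving out each library. TMM factors for the lineage lists were added after seeing the data. Python 3.11.15, numpy 2.4.6, pandas 2.3.3, scipy 1.17.1 and matplotlib 3.10.9 were used.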

Additional observations from a re-analysis of the deposited data

How the results depend on the processing

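The edgeR and DESeq2 comparisons of genotypes called none of the 10 genes except in fits that left out 1 library, and the stage comparison called between 0 and 3. Members called ranged over the fits without 1 library from 0 to 1 at E12.5, from 0 to 2 in the difference between stages, from 0 to 2 between the stages and from 0 to 1 in covered bases. Between the stages 2 were called with TMM factors, 3 with DESeq2, 2 within 5 kb (Sox1, Sox21) and 3 in merged regions (Sox1, Sox2, Sox21). In covered bases 1, Sox18, was at or below 0.05 within 5 kb. Its value at gene ends was the same (-0.18, exact permutation p = 0.005) and is not a separate result. Sox18 measures 1.804 kb, so its end windows overlap. Bases in both windows were counted for each, up to the whole interval length. An interval that was not called has no count, so changes that remove one are outside the main test. The causes of these shifts were not tested.

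The number of all genes called at E12.5 was 127, and 47 with TMM factors, 6 with intervals in most libraries, 229 with counts inside the window, 48 at gene ends and 196 above the median score, or 11 to 903 without 1 library (11 without KO replicate 1, 903 without KO replicate 3). At E15.5 it was 13, and 72 with DESeq2, 1 with intervals in most libraries, 0 at gene ends, 77 in merged regions and 20 above the median score, or 0 to 13 without 1 library. Over both stages it was 24, and 102 with TMM factors, 217 with DESeq2, 0 with intervals in most libraries, 48 with counts inside, 6 at gene ends and 135 in merged regions, or 0 to 40. For the difference between stages it was 14, and 6 with TMM factors, 43 with DESeq2, 2 with intervals in most libraries, 29 with counts inside, 2 at gene ends and 106 in merged regions, or 0 to 958. Between the stages it was 636, and 993 with TMM factors and 1140 with DESeq2, or 374 to 992. At 0 calls in the wider filter over both stages, edgeR passed 449 genes at an unadjusted p below 0.05.

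The log2 differences that changed sign did so as follows, TMM factors before DESeq2. At E12.5 they were 0.0166 and 0.0747 for Sox7, 0.28 and 0.34 for Sox21, 0.0243 and 0.0831 for Sox8, 0.35 and 0.40 for Sox14, and 0.0127 with DESeq2 for Sox18. Over both stages they were 0.0238 and 0.0409 for Sox7 and 0.16 and 0.17 for Sox14. In the difference between stages they were -0.0648 and -0.0922 for Sox7, -0.14 and -0.17 for Sox18, -0.41 and -0.36 for Sox1, and -0.45 and -0.49 for Sox14. Between the stages they were 0.16 and 0.17 for Sox7. At E15.5 Sox7 was -0.0114 with DESeq2. With counts inside the window Sox14 was 0.27 at E12.5, 0.0264 over both stages and -0.49 in the difference between stages, and Sox7 was -0.19 at E15.5. Sox1 in the difference between stages was -0.17 within 5 kb and -0.12 in merged regions. In covered bases Sox7 was 0.0139 within 5 kb, and as a share of covered autosomal bases Sox7 was 0.0916 and Sox18 0.0318.

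Without 1 library, Sox7 at E15.5 ranged from -0.0477 to 0.0779, Sox1 at E15.5 from -0.96 to 1.40, Sox21 over both stages from -0.0221 to 0.33, Sox1 over both stages from -0.83 to 0.0699, Sox1 in the difference between stages from -0.22 to 2.12, Sox14 there from -0.00152 to 0.21, and covered bases of Sox7 from -0.0705 to 0.0676.

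With the replicate number as a block, 305 genes were called at E12.5, 0 at E15.5, 5 over both stages, 52 in the difference between stages and 412 between the stages. Under the block Sox7 at E15.5 was -0.0016 and Sox1 0.21, Sox21 missed the threshold between the stages (edgeR adjusted p = 0.0688) and Sox1 passed it (-1.47, edgeR adjusted p = 0.0472). The deviations of WT and KO libraries of the same number correlated at 0.0194 to 0.226 at E12.5 and at -0.352 to -0.202 at E15.5, and not every library correlated best with its own number, so the numbers were not taken to pair the libraries.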
